A study of Mus musculus with 24 samples.

Results

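The 8 genes described here encode enzymes that set, copy and oxidise DNA methylation in mouse C2C12 cells, together with enzymes that make a substrate of the oxidation step. They were chosen by name: the ten-eleven translocation dioxygenases Tet1, Tet2 and Tet3, the DNA methyltransferases Dnmt1, Dnmt3a and Dnmt3b, and the NADP-dependent isocitrate dehydrogenases Idh1 and Idh2. They are 8 of the 24043 gene rows of the expression table and 8 of the 12389 genes tested. C2C12 is an established myoblast line, a single clonal population that proliferates in growth medium and fuses into myotubes in differentiation medium. Cells were kept in growth medium (GM) or differentiation medium (DM) at 21% oxygen (normoxia, NOR) or 2% oxygen (hypoxia, HYP), which gives 4 groups. Each group had 2 RNA-seq libraries, A and B, which the submitters call biological replicates. The labels name no engineered allele, and the number of days in differentiation medium or in hypoxia is not given in the sources used here. The series holds 24 samples, of which the 8 RNA-seq libraries were used, and the 8 H3K27me3 chromatin libraries and 8 input libraries were not analysed here.

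TET dioxygenases oxidise 5-methylcytosine in DNA, and their reaction consumes molecular oxygen and 2-oxoglutarate and needs ferrous iron. DNMT1 copies methylation onto the new strand after DNA replication, guided by the reader UHRF1, whereas DNMT3A and DNMT3B methylate unmodified sites. IDH1 in the cytosol and IDH2 in mitochondria convert isocitrate to 2-oxoglutarate, and each can also run in reverse, which turns 2-oxoglutarate into isocitrate. Myoblasts leave the cell cycle when they differentiate, and DNMT1 is best known from dividing cells. Transcript levels are reported below, and neither enzyme activity, metabolites nor DNA methylation was measured in these libraries.

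The sequences just upstream of annotated start sites are shown for Idh1, Idh2 and Dnmt3a, so that their base composition and short motifs can be read directly. Levels of these genes changed with oxygen in both media, as did that of Dnmt1, whose windows are not printed in full. For Dnmt3a only the window with a match is printed. The sequences are from RefSeq, build GRCm38.p6, 250 bases long and ending at the base before the start, written 5′ to 3′ on the gene's own strand. The submitters mapped to mm9, so these coordinates do not carry over to their files. Capitals mark ACGTG or GCGTG on either strand, the core letters of sites that hypoxia-inducible factors are known to bind. Idh1 has 2 annotated starts, of which only the second window printed holds the core letters.
Idh1 at chr1:65186480-65186729, minus strand: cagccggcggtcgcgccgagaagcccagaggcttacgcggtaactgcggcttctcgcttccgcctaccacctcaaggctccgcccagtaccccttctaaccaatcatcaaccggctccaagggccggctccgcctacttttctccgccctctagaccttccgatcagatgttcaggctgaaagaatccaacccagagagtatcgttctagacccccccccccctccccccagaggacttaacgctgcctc
Idh1 at chr1:65179143-65179392, minus strand: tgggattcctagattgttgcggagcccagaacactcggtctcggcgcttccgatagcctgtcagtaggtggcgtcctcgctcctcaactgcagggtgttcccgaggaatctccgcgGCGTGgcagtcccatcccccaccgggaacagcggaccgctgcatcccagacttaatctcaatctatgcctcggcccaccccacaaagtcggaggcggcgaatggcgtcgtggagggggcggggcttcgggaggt
Idh2 at chr7:80115351-80115600, minus strand: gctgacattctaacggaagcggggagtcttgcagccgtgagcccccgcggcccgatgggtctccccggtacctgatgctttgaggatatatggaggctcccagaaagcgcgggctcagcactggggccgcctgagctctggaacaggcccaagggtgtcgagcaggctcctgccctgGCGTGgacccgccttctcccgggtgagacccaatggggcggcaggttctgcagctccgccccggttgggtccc
Dnmt3a at chr12:3891494-3891743, plus strand: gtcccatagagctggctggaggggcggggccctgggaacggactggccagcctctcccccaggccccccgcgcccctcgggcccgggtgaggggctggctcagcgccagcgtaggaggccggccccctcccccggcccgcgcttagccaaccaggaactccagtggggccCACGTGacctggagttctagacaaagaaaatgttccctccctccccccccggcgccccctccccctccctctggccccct
The match in Idh1 lay 134 to 130 bases before the start and the match in Idh2 lay 73 to 69 bases before it. In Dnmt3a the capitals are a palindrome that counts as 2 overlapping matches, 80 to 75 bases before one of its 3 annotated starts. The windows of its other starts held no match.

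All 8 genes had at least 1 RefSeq window, 13 windows in all. The core letters were present in 5 of the 13 windows, which is 38.5%, against 38.6% of the 32851 windows of all genes. A longer pair of motifs, TTTCGCGC or TTTGGCGC on either strand, the kind bound by E2F factors of the cell cycle, was found in 1 of the 13 windows against 0.654% of all windows. That window belongs to Dnmt1, and the 30 bases around the match are shown with the motif in capitals, read on the opposite strand.
Dnmt1 at chr9:20952824-20952853, minus strand: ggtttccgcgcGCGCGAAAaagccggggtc
The Tet2 window held 51 CpG dinucleotides, a number reached by 0.067% of all windows, whereas the median window held 6. The Tet1 window held 15 and the Tet3 window 17. The 3 windows of Dnmt3a held 38, 40 and 15, and those of Dnmt1 held 26, 7 and 2. A match or a CpG count is a property of these letters, and neither binding nor methylation at them was measured here.

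The libraries differed in depth and in some marker genes, which bears on every value that follows. Levels are in FPKM, that is, fragment numbers divided by transcript length and by library size, so they can be compared between genes, and absolute depth is unknown. Relative depth ran from 0.631 to 1, and both extremes were hypoxic differentiation medium libraries (B and A). The A and B libraries of a group had a Pearson's r over tested genes of 0.975 (GM_NOR), 0.982 (DM_NOR), 0.983 (GM_HYP) and 0.958 (DM_HYP). All 8 skeletal muscle markers reached 1 FPKM, and their summed level was 366.4 and 443.7 FPKM in GM_NOR, 6408 and 6415 in DM_NOR, 99.1 and 107.4 in GM_HYP, and 62.4 and 84.6 in DM_HYP. All 8 were lower in DM_HYP than in DM_NOR. Against GM_HYP, 4 of the 8 were higher in DM_HYP (Myog 8.46-fold, Myh3, Acta1 and Tnnt1) and 1, Myod1, was lower. The mean of Myog was 0.392 FPKM in GM_HYP and 3.315 in DM_HYP, against 11.08 in GM_NOR and 2609 in DM_NOR. A list of 22 proliferation genes had a median of 4.69 FPKM in DM_HYP A and 23.9 in DM_HYP B, and all 22 were higher in B. Values without DM_HYP A or B are given below where a removal moved a result of this group. The macrophage marker Cd68 stood at 25.8 and 42.8 FPKM in DM_HYP against 1.76 to 3.57 elsewhere, while Emr1 was listed at 0 in every library and Ptprc, Csf1r and Aif1 were under 1 FPKM. The part of these marker differences in the results was not tested. Of the other marker lists, 0 of 4 endothelial, 1 of 5 adipocyte, 2 of 4 osteoblast and 4 of 6 fibroblast genes reached 1 FPKM. In bulk libraries, fewer cells of a type and less RNA per cell cannot be told apart.

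Most of the 8 genes passed the test in most comparisons, in both directions. The test was limma's moderated test on log2(FPKM + 1), with Benjamini-Hochberg adjustment over the 12389 genes and a threshold of 0.05. Differentiation in normoxia (DM_NOR against GM_NOR) raised 2 of the 8 and lowered 4, against 25.5% and 41% of all tested genes. Differentiation in hypoxia (DM_HYP against GM_HYP) raised 1 and lowered 3, against 23.3% and 17.6%. That name stands for the change of medium at 2% oxygen, where the muscle markers stayed far below their DM_NOR level. Hypoxia in growth medium (GM_HYP against GM_NOR) raised 2 and lowered 3, against 13.5% and 28%. Hypoxia in differentiation medium (DM_HYP against DM_NOR) raised 3 and lowered 3, against 37.5% and 27.7%. The interaction subtracts the normoxic differentiation change from the hypoxic one, and it was positive for 3 and negative for 2, against 35.4% and 18.7%. With so many genes called, these counts say little that is particular to the 8, and the size and direction of each gene's change carry the description. The comparisons share groups, so they are not independent of one another.

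The scale between libraries matters for small changes. The median change of all tested genes was -0.20 (log2) in differentiation in normoxia, 0.07 in differentiation in hypoxia, -0.14 in hypoxia in growth medium, 0.15 in hypoxia in differentiation medium and 0.27 in the interaction. After median-of-ratios scaling the first of these medians was 0.02 and the interaction's was -0.01. The share of calls that were higher was 38.4% in differentiation in normoxia (53.2% after median-of-ratios scaling) and 56.9% in differentiation in hypoxia (44.4% after upper-quartile scaling). It was 32.6% in hypoxia in growth medium (49.8% after upper-quartile scaling), 57.5% in hypoxia in differentiation medium and 65.5% in the interaction (46.7% and 47.7% after median-of-ratios scaling). The medians over the 8 genes were -0.30, -0.05, -0.06, -0.05 and 0.17 in the same order of comparisons as the medians of all genes.

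**Figure D1:**
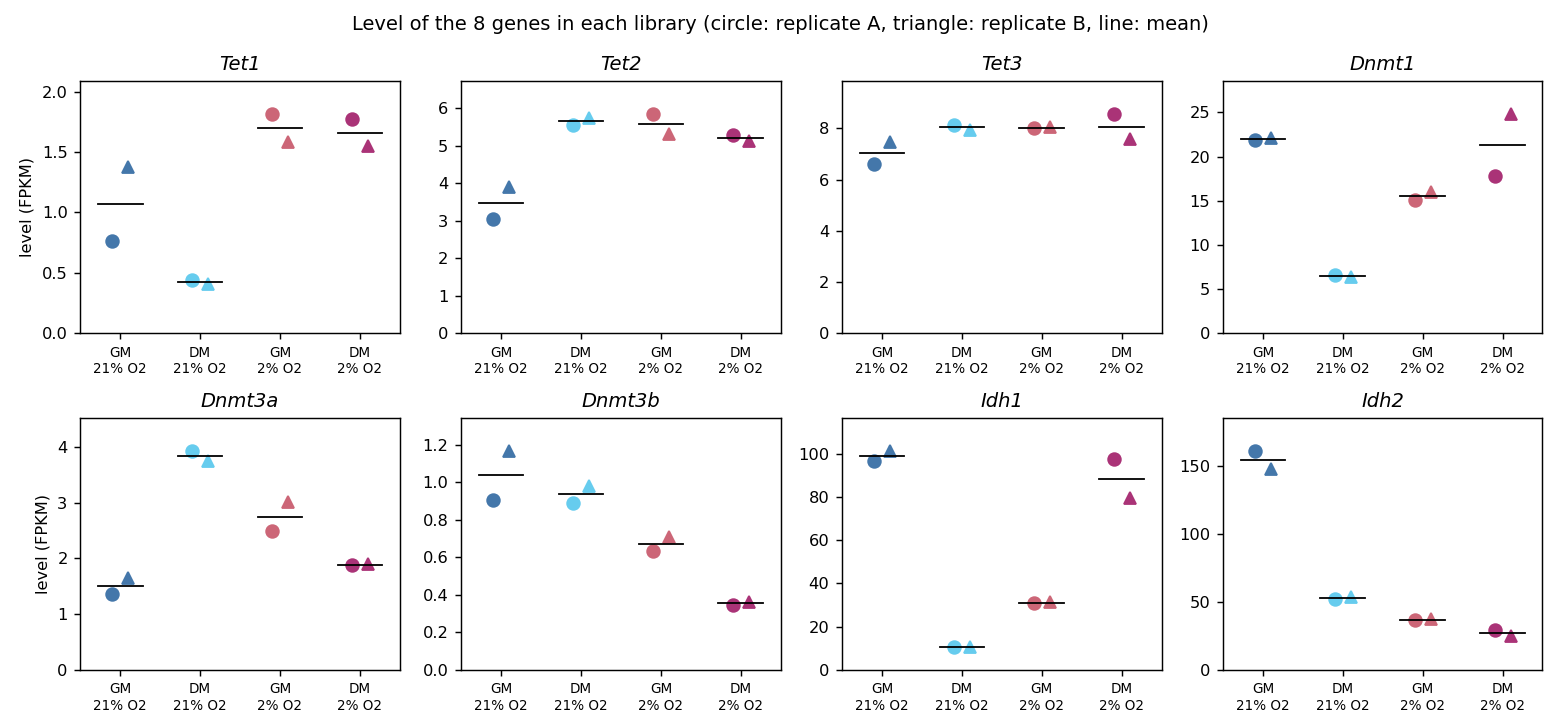
Level in FPKM (vertical axes, linear and from 0) of each of the 8 genes in each library, by group; circles are replicate A, triangles replicate B and lines the group mean. Idh1 and Dnmt1 were lowest in DM_NOR, where Dnmt3a was highest, and Idh2 was highest in GM_NOR.

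Among the dioxygenases, Tet1 rose most with hypoxia in differentiation medium, Tet2 was lowest in normoxic growth medium, and Tet3 passed the test in none of the comparisons. Tet1, which carries a CXXC domain that binds CpG-rich DNA, was the scarcest of the 3. Its level was 0.765 and 1.37 FPKM in GM_NOR, 0.436 and 0.409 in DM_NOR, 1.81 and 1.58 in GM_HYP, and 1.77 and 1.55 in DM_HYP. Both normoxic differentiation libraries lay below the other 6, and all 4 hypoxic libraries lay above all 4 normoxic ones. Tet1 fell in differentiation in normoxia by 0.52 ± 0.15 (log2, SE; adjusted p = 0.02), a 2.53-fold lower mean FPKM. In hypoxia the same comparison gave -0.02 (adjusted p = 0.932, 95% interval -0.38 to 0.34). In differentiation medium, hypoxia raised Tet1 by 0.90 ± 0.15 (adjusted p = 0.0019), and its mean went from 0.423 ± 0.0191 to 1.66 ± 0.159 FPKM (SD, n = 2), a 3.92-fold difference. In growth medium its difference was 0.40 ± 0.15 (adjusted p = 0.0766), with the GM_NOR libraries themselves apart. It was 0.18 without GM_NOR A and 0.61 without GM_NOR B. The interaction for Tet1 was 0.50 ± 0.21 (adjusted p = 0.0876), so the responses at the different oxygen levels were not shown to differ. It was 0.72 without GM_NOR A and 0.29 without GM_NOR B. Because Tet1 lies near the pseudocount of 1, the log2 values understate its change. With a pseudocount of 0.1 the rise in differentiation medium was 1.75. The fall in normoxia lost its call (adjusted p = 0.0505) under median-of-ratios scaling and also without GM_NOR B (change -0.31, adjusted p = 0.0713), DM_NOR A (0.0716) or DM_NOR B (0.0831).

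Tet2, which lacks a CXXC domain of its own, stood at 3.05 and 3.90 FPKM in GM_NOR, 5.56 and 5.75 in DM_NOR, 5.85 and 5.32 in GM_HYP, and 5.28 and 5.14 in DM_HYP. The GM_NOR libraries were the lowest, and the other 6 lay between 5.14 and 5.85 FPKM. Tet2 rose in differentiation in normoxia by 0.58 ± 0.12 (adjusted p = 0.00519, 1.63-fold). It also rose with hypoxia in growth medium, by 0.56 ± 0.12 (adjusted p = 0.0108, 1.61-fold), a call lost without GM_HYP A (0.0793). In hypoxic cells the differentiation change was -0.08 (adjusted p = 0.619, 95% interval -0.38 to 0.21), and in differentiation medium the hypoxia change was -0.10 (adjusted p = 0.491, 95% interval -0.39 to 0.19). The interaction was -0.66 ± 0.17 (adjusted p = 0.0164). That call was lost without DM_NOR A (0.056), DM_NOR B (0.0669) or GM_HYP A (0.0674).

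Tet3, the most abundant of the family here, ranged from 6.62 FPKM in GM_NOR A to 8.57 in DM_HYP A. Its other libraries were at 7.48 (GM_NOR B), 8.14 and 7.94 (DM_NOR), 8.0 and 8.06 (GM_HYP) and 7.58 (DM_HYP B). Its largest fitted change among the 4 comparisons of groups was 0.17 ± 0.10, in differentiation in normoxia (adjusted p = 0.186, 95% interval -0.08 to 0.42). After median-of-ratios scaling that change was 0.41 (adjusted p = 0.0236), the only 1 of 17 alternatives with a call. The absence of a call thus depends on the scaling used, and upper-quartile scaling gave no call. Its changes in differentiation in hypoxia and in hypoxia in differentiation medium were both 0.00, with 95% intervals of -0.24 to 0.25, and they were below 0 after either rescaling. Summed over the 3 genes, TET transcript was 10.4 and 12.8 FPKM in GM_NOR against 14.1 and 14.1 in DM_NOR, 15.7 and 15.0 in GM_HYP, and 15.6 and 14.3 in DM_HYP. Tet1 made up 3.09% and 2.9% of that sum in DM_NOR and 7.33% to 11.6% in the other 6 libraries.

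**Figure D2:**
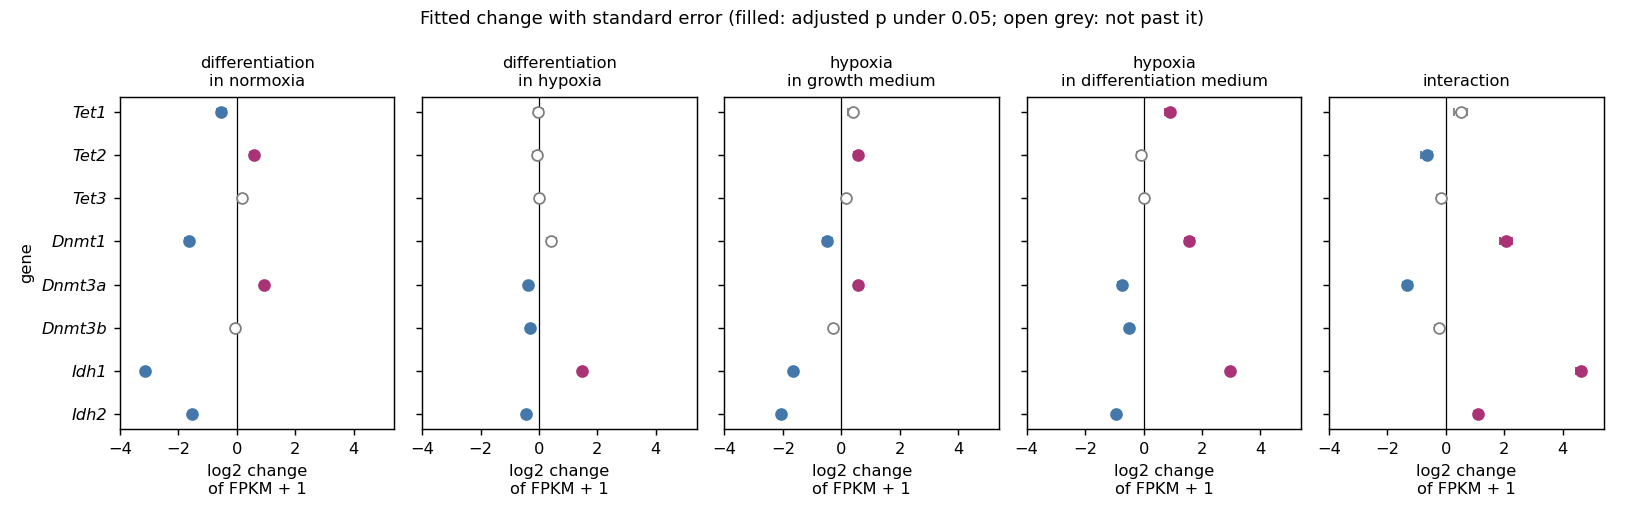
Fitted log2 change of FPKM + 1 (horizontal axis) of each gene in the 4 comparisons and the interaction, with bars of 1 standard error; filled points passed an adjusted p of 0.05 and open points did not. Idh1 changed sign between differentiation in normoxia (-3.13) and in hypoxia (1.47).

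Among the methyltransferases, Dnmt1 and Dnmt3a moved in opposite directions in 3 of the 4 comparisons of groups, with both genes called. Dnmt1, the maintenance enzyme, stood at 21.9 and 22.1 FPKM in GM_NOR, 6.54 and 6.30 in DM_NOR, 15.0 and 16.0 in GM_HYP, and 17.8 and 24.8 in DM_HYP. The DM_NOR libraries were far below the rest, and the DM_HYP libraries were apart from each other and overlapped the range of GM_NOR. Dnmt1 fell in differentiation in normoxia by 1.63 ± 0.15 (adjusted p = 0.000107, 3.42-fold lower). In hypoxic cells the differentiation change was 0.42 ± 0.15 (adjusted p = 0.0621), which was 0.65 without DM_HYP A and 0.19 without DM_HYP B. Hypoxia in growth medium lowered it by 0.48 ± 0.15 (adjusted p = 0.0403, 1.42-fold lower). This last call was lost in 8 of 17 alternatives, among them the removal of GM_NOR A (0.129), GM_NOR B (0.124), DM_NOR A (0.0819), DM_NOR B (0.0818), GM_HYP A (0.174) or GM_HYP B (0.118). Hypoxia in differentiation medium raised Dnmt1 by 1.57 ± 0.15 (adjusted p = 0.000126, 3.32-fold). The interaction of 2.05 ± 0.21 passed the test (adjusted p = 0.000344).

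Dnmt1 did not track the proliferation list in every library. The list's median was 19.4 and 18.7 FPKM in GM_NOR, 5.43 and 5.30 in DM_NOR, 12.1 and 10.3 in GM_HYP, and 4.69 and 23.9 in DM_HYP. The ratio of Dnmt1 to that median was 1.04 to 1.55 in 7 libraries and 3.80 in DM_HYP A. In that library Dnmt1 was 2.77-fold above the DM_NOR mean. Each list gene was also divided by its own DM_NOR mean, and the median of these ratios was 1.12. Of the 22 genes, 12 exceeded both DM_NOR libraries. In DM_HYP B, Dnmt1 was 3.87-fold above the DM_NOR mean and all 22 list genes exceeded both DM_NOR libraries. Without DM_HYP B the change of Dnmt1 with hypoxia in differentiation medium was 1.34, and without DM_HYP A it was 1.80. Each of these values rests on 1 DM_HYP library, so the spread between A and B is not in its error. The part of proliferation in the change of Dnmt1 was not tested. The list genes were split in DM_HYP A, where 12 exceeded both DM_NOR libraries and 10 did not. Mki67, a protein of cycling cells, was at 3.46 FPKM in DM_HYP A and 23.6 in DM_HYP B, against a DM_NOR mean of 3.33. E2f1, a cell cycle factor, was at 13.7 and 19.8 FPKM in the same libraries, against a DM_NOR mean of 3.46.

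Uhrf1, the reader that recruits DNMT1 to newly replicated DNA, split between the same libraries. Its level was 16.5 and 15.6 FPKM in GM_NOR, 3.00 and 3.19 in DM_NOR, 8.75 and 8.62 in GM_HYP, and 5.37 and 29.1 in DM_HYP. Between DM_HYP A and B it differed 5.42-fold, close to the median of 5.17 among the B to A ratios of the proliferation genes, whereas Dnmt1 differed 1.40-fold. Uhrf1 was called in differentiation in normoxia (-2.06 ± 0.62, adjusted p = 0.0237). That standard error pools the spread of all 4 groups, among them the DM_HYP libraries at 5.37 and 29.1 FPKM. The call was lost without any one of the 4 normoxic libraries, where the change was -2.02 (GM_NOR A), -2.10 (GM_NOR B), -2.02 (DM_NOR A) or -2.09 (DM_NOR B). It was kept without DM_HYP A or DM_HYP B, at -2.06, where the DM_HYP spread no longer entered the standard error. Uhrf1 was also called in hypoxia in differentiation medium (1.76 ± 0.62, adjusted p = 0.0425). The change was 2.88 without DM_HYP A and 0.64 without DM_HYP B. The call was lost without DM_NOR A (0.152), DM_NOR B (0.141), either GM_NOR library (0.0762) or either GM_HYP library (0.0712).

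**Figure D3:**
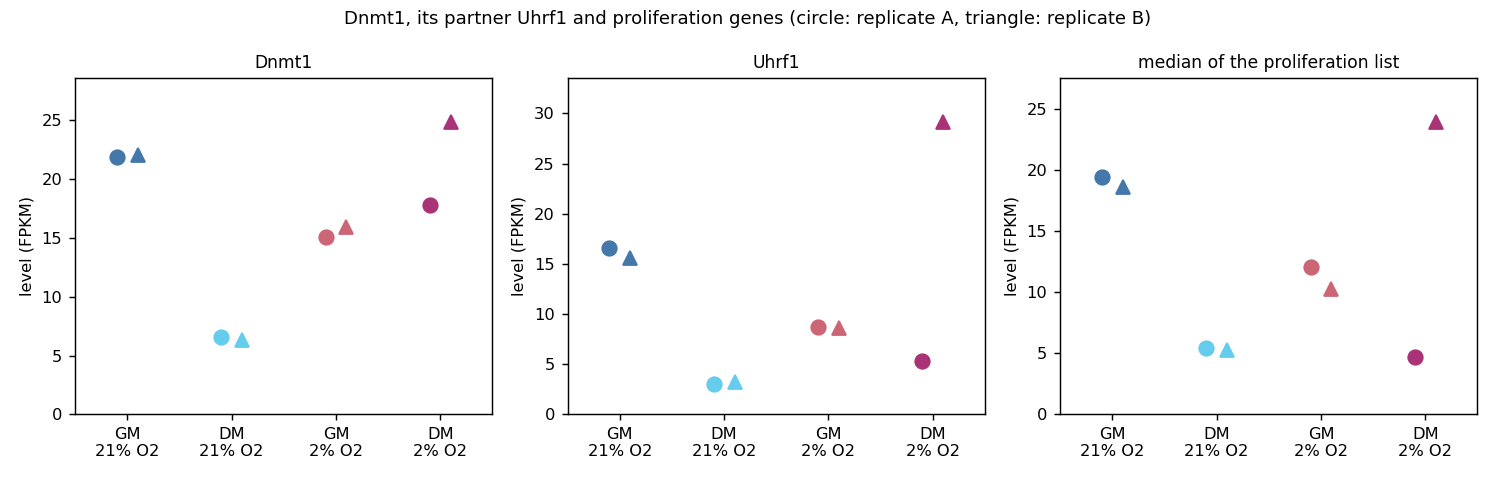
Level in FPKM (vertical axes, linear and from 0) of Dnmt1, of its partner Uhrf1 and of the median gene of the 22-gene proliferation list in each library; circles are replicate A and triangles replicate B. In DM_HYP A, Dnmt1 was at 17.8 FPKM while the list's median was 4.69.

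Dnmt3a, a de novo methyltransferase, was highest in normoxic differentiation medium, the group in which Dnmt1 was lowest. Its level was 1.37 and 1.65 FPKM in GM_NOR, 3.93 and 3.74 in DM_NOR, 2.49 and 3.00 in GM_HYP, and 1.87 and 1.89 in DM_HYP. The ranges of the 4 groups did not overlap. In single comparisons of 2 groups, 70.3% to 87% of all tested genes had ranges that did not overlap. Dnmt3a rose in differentiation in normoxia by 0.95 ± 0.11 (adjusted p = 0.000387), a 2.54-fold higher mean. It fell with hypoxia in differentiation medium by 0.75 ± 0.11 (adjusted p = 0.00122, 2.04-fold lower), and the interaction was -1.32 ± 0.16 (adjusted p = 0.00073). In growth medium hypoxia raised it by 0.58 ± 0.11 (adjusted p = 0.00772, 1.82-fold), a call lost without GM_HYP B (0.0578). Its fall in differentiation in hypoxia was 0.37 ± 0.11 (adjusted p = 0.0388) and was lost in 10 of 16 alternatives, including the removal of any one library of DM_NOR, GM_HYP or DM_HYP (0.0554 to 0.208).

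Dnmt3b, the other de novo enzyme, was at or under about 1 FPKM throughout and passed the filter only through the GM_NOR mean of 1.04. Its level was 0.903 and 1.17 FPKM in GM_NOR, 0.888 and 0.979 in DM_NOR, 0.632 and 0.705 in GM_HYP, and 0.344 and 0.362 in DM_HYP. All 4 hypoxic libraries were below all 4 normoxic ones, and DM_HYP was lowest. Hypoxia in differentiation medium lowered it by 0.51 ± 0.10 (adjusted p = 0.00343, 2.64-fold lower). In growth medium the hypoxia change was -0.28 ± 0.10 (adjusted p = 0.058), and in differentiation in normoxia it was -0.07 ± 0.10 (adjusted p = 0.547, 95% interval -0.31 to 0.16), with the sign reversed after median-of-ratios scaling. The fall in differentiation in hypoxia was 0.30 ± 0.10 (adjusted p = 0.0481, 1.89-fold lower) and was lost in 8 of 16 alternatives, again without any one library of DM_NOR, GM_HYP or DM_HYP (0.0552 to 0.19). The interaction for Dnmt3b was -0.23 ± 0.14 (adjusted p = 0.201).

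The mixture of methyltransferase transcripts differed with the group. Dnmt1 exceeded Dnmt3a 16.0- and 13.3-fold in GM_NOR, 1.66- and 1.69-fold in DM_NOR, 6.05- and 5.31-fold in GM_HYP, and 9.51- and 13.1-fold in DM_HYP. The summed level of the 3 genes was 24.2 and 24.9 FPKM in GM_NOR, 11.4 and 11.0 in DM_NOR, 18.2 and 19.7 in GM_HYP, and 20.0 and 27.1 in DM_HYP. Dnmt1 made up 57.2% and 57.6% of that sum in DM_NOR and 81.2% to 91.7% in the other 6 libraries. These ratios are within a library and do not depend on the scale between libraries.

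The isocitrate dehydrogenases held the largest changes among the 8 genes. Idh1, the cytosolic enzyme, stood at 96.7 and 101.5 FPKM in GM_NOR, 10.4 and 10.4 in DM_NOR, 31.0 and 31.2 in GM_HYP, and 97.4 and 79.7 in DM_HYP. The DM_HYP range overlapped that of GM_NOR, and the other groups were apart from these and from each other. Idh1 fell in differentiation in normoxia by 3.13 ± 0.10 (adjusted p = 1.37e-06), a 9.54-fold lower mean, and rose in differentiation in hypoxia by 1.47 ± 0.10 (adjusted p = 0.000294, 2.85-fold). Hypoxia lowered it in growth medium by 1.64 ± 0.10 (adjusted p = 0.000107, 3.18-fold lower) and raised it in differentiation medium by 2.97 ± 0.10 (adjusted p = 1.57e-06, 8.52-fold). The interaction was 4.61 ± 0.14 (adjusted p = 2.91e-06). All 5 of these calls held in every alternative run.

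Idh2, the mitochondrial enzyme, stood at 161.3 and 148.0 FPKM in GM_NOR, 51.9 and 53.5 in DM_NOR, 36.3 and 37.0 in GM_HYP, and 29.1 and 24.8 in DM_HYP. It was highest in normoxic growth medium, and the 4 group ranges did not overlap. Most tested genes also had no overlap in a single comparison of 2 groups (70.3% to 87%). Idh2 fell in differentiation in normoxia by 1.53 ± 0.09 (adjusted p = 2e-05, 2.94-fold lower) and with hypoxia in growth medium by 2.05 ± 0.09 (adjusted p = 4e-05, 4.22-fold lower). It also fell with hypoxia in differentiation medium, by 0.95 ± 0.09 (adjusted p = 0.000161, 1.96-fold lower). Its fall in differentiation in hypoxia was smaller, 0.44 ± 0.09 (adjusted p = 0.0119, 1.36-fold lower), and was lost without GM_HYP A (0.0628) or GM_HYP B (0.0751) and when only the GM_HYP and DM_HYP libraries were fitted (0.059). The interaction was 1.10 ± 0.13 (adjusted p = 0.00071).

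The balance of the pair inverted in hypoxic differentiation medium. The ratio of Idh1 to Idh2 was 0.600 and 0.686 in GM_NOR, 0.201 and 0.194 in DM_NOR, 0.855 and 0.844 in GM_HYP, and 3.35 and 3.22 in DM_HYP. Idh1 exceeded Idh2 in both DM_HYP libraries and in none of the other 6. The sum of both genes was 258.0 and 249.4 FPKM in GM_NOR, 62.3 and 63.9 in DM_NOR, 67.3 and 68.2 in GM_HYP, and 126.5 and 104.5 in DM_HYP. The sum was thus highest in normoxic growth medium and lowest in normoxic differentiation medium, with hypoxic growth medium just above the latter.

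**Figure D4:**
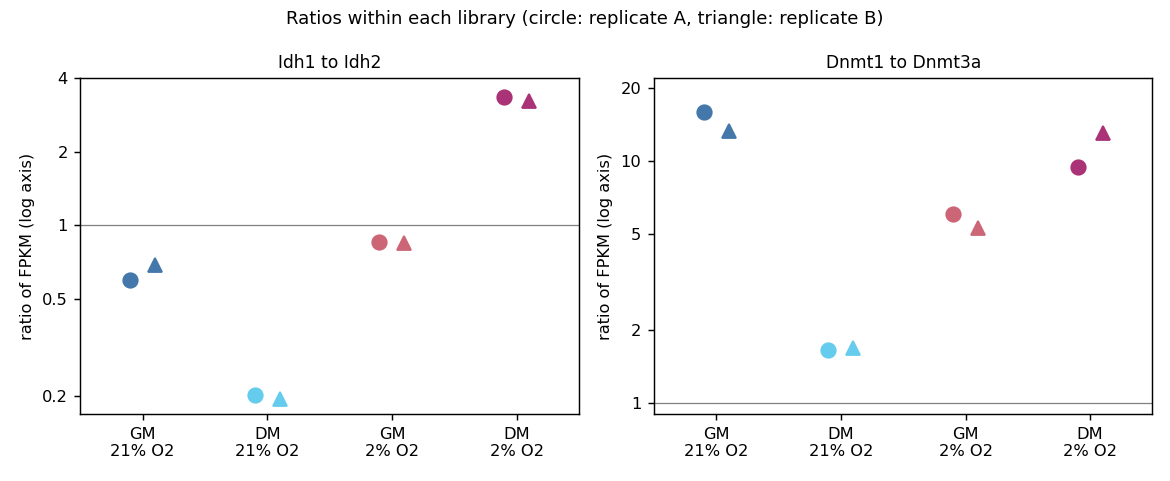
Ratio of Idh1 to Idh2 and of Dnmt1 to Dnmt3a within each library (vertical axes are logarithmic, with a line at a ratio of 1); circles are replicate A and triangles replicate B. The Idh1 to Idh2 ratio was 3.35 and 3.22 in DM_HYP and under 1 elsewhere.

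The order of levels within a group changed mainly through Dnmt1 and the isocitrate dehydrogenases. In GM_NOR and GM_HYP the order from the top was Idh2, Idh1, Dnmt1, Tet3, Tet2 and Dnmt3a. Below these came Tet1 and then Dnmt3b, and in GM_NOR neighbours among the lowest 3 overlapped. In DM_NOR, Tet3 exceeded Dnmt1, and Tet1 was the lowest. In DM_HYP, Idh1 was at the top, and Idh2 (29.1 and 24.8 FPKM) and Dnmt1 (17.8 and 24.8 FPKM) did not differ beyond their spread.

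The other genes of DNA methylation and its readers, 17 genes that were all tested, had 0 higher and 7 lower in differentiation in normoxia, with a median change of -0.54. The 7 are a share of the 17 close to the 41% of all tested genes that were lower, and median-of-ratios scaling gave 1 higher and 7 lower. Hypoxia in differentiation medium gave 9 higher and 2 lower (median 0.49), against 37.5% and 27.7% of all tested genes. Hypoxia in growth medium gave 3 and 3 (median -0.23), against 13.5% and 28%, and differentiation in hypoxia 3 and 3 (median 0.09), against 23.3% and 17.6%. Leaving out 1 library gave 6 to 11 higher in hypoxia in differentiation medium and 2 to 6 lower in hypoxia in growth medium. Dnmt3l, a catalytically inactive cofactor of the de novo enzymes, was near 0 in normoxia at 0.136 and 0.0524 FPKM in GM_NOR and 0.207 and 0.0550 in DM_NOR. It reached 1.39 and 1.63 FPKM in GM_HYP and 3.58 and 3.13 in DM_HYP, above every normoxic library. It passed the filter only through the hypoxic groups in which it is high, so a gene at its normoxic level had to differ to be tested. It rose with hypoxia by 1.20 ± 0.12 in growth medium (adjusted p = 0.000478) and by 1.95 ± 0.12 in differentiation medium (adjusted p = 1.57e-05). Dnmt3l thus rose in the comparison in which Dnmt3a and Dnmt3b fell. Uhrf2, a relative of Uhrf1, stood at 27.4 and 28.4 FPKM in GM_NOR, 8.86 and 9.06 in DM_NOR, 40.8 and 38.2 in GM_HYP, and 20.7 and 22.3 in DM_HYP. It was called in all 4 comparisons of groups, at -1.54 and -0.85 in differentiation (normoxia, hypoxia; adjusted p = 9.58e-06 and 0.000698) and at 0.49 and 1.18 with hypoxia (growth, differentiation medium; adjusted p = 0.00365 and 2.75e-05). Hells, a remodeller needed for methylation of repeats, passed the test in none of the comparisons. Its level was 2.56 and 3.67 FPKM in GM_NOR, 1.61 and 2.00 in DM_NOR, and 2.90 and 2.46 in GM_HYP. In DM_HYP it was 1.71 and 10.1, a spread that enters the pooled error of every comparison. Trdmt1, a relative that methylates transfer RNA, fell with hypoxia in differentiation medium by 1.19 ± 0.16 (adjusted p = 0.000584).

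Partners of the TET enzymes and base excision genes, 17 tested of 19 listed, rose in 8 cases and fell in 3 in differentiation in normoxia (median 0.31). Of all tested genes, 25.5% rose and 41% fell there. With hypoxia in differentiation medium 2 rose and 8 fell (median -0.36), against 37.5% and 27.7%. Hypoxia in growth medium gave 1 higher and 5 lower (median -0.33), against 13.5% and 28%. The 5 are a share of the 17 close to that of all tested genes. Differentiation in hypoxia gave 4 and 2 (median 0.29), against 23.3% and 17.6%. These counts were small and moved with single libraries: leaving out 1 library gave 0 to 9 higher and 0 to 4 lower in differentiation in hypoxia, 1 to 4 higher and 4 to 9 lower in hypoxia in growth medium, and 1 to 4 higher and 6 to 11 lower in hypoxia in differentiation medium. Gadd45a, a stress protein linked to active demethylation, stood at 85.6 and 73.1 FPKM in GM_NOR, 346.5 and 350.3 in DM_NOR, 74.2 and 75.6 in GM_HYP, and 28.1 and 46.7 in DM_HYP. It rose in differentiation in normoxia by 2.12 ± 0.21 (adjusted p = 0.000173) and fell with hypoxia in differentiation medium by 3.23 ± 0.21 (adjusted p = 2.61e-05). Apobec2, a muscle member of the cytidine deaminase family, was at 1.04 and 1.09 FPKM in GM_NOR and 39.5 and 34.7 in DM_NOR, and at 0.0478 and 0 in GM_HYP and 0.596 and 0.0673 in DM_HYP. Its high level was seen in DM_NOR, the group with the highest muscle markers, and its change in differentiation in normoxia was 4.20 ± 0.19 (adjusted p = 5.38e-06). Cxxc5, a CXXC protein described as a partner of TET2, moved the opposite way, by -1.47 ± 0.18 in differentiation in normoxia (adjusted p = 0.000372) and by 1.87 ± 0.18 with hypoxia in differentiation medium (adjusted p = 0.000125). Tdg, the glycosylase that excises oxidised methylcytosine, was called only in differentiation in hypoxia, at 0.91 ± 0.19 (adjusted p = 0.0107), and lost that call without GM_HYP A (0.0505).

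The 20 genes of 2-oxoglutarate supply and of the acids that compete with it were mostly lower in hypoxia. Hypoxia in differentiation medium lowered 17 and raised 2 (median -0.77), against 27.7% and 37.5% of all tested genes. Hypoxia in growth medium lowered 13 and raised 4 (median -0.59), against 28% and 13.5%. Differentiation raised 12 and lowered 4 in normoxia (median 0.37), against 25.5% and 41%. In hypoxia it raised 14 and lowered 3 (median 0.50), against 23.3% and 17.6%. Median-of-ratios scaling gave 16 higher and 1 lower in normoxia. Leaving out 1 library gave 8 to 14 higher and 1 to 3 lower in differentiation in hypoxia, and 14 to 18 lower in hypoxia in differentiation medium, where 27.7% of all tested genes were lower. Idh3a, a subunit of the NAD-dependent enzyme of the citric acid cycle, stood at 20.0 and 21.0 FPKM in GM_NOR, 30.2 and 31.4 in DM_NOR, 7.98 and 8.57 in GM_HYP, and 15.0 and 19.7 in DM_HYP. It rose with differentiation in normoxia by 0.57 ± 0.13 (adjusted p = 0.00738), where Idh1 and Idh2 fell. That call was lost without DM_NOR B (0.0533). It fell with hypoxia by 1.21 ± 0.13 in growth medium (adjusted p = 0.000666) and by 0.81 ± 0.13 in differentiation medium (adjusted p = 0.00147). Ogdh, a subunit of the complex that consumes 2-oxoglutarate, fell with hypoxia in growth medium by 0.85 ± 0.09 (adjusted p = 0.000651). Sdhb, of the succinate-oxidising complex, fell there by 1.24 ± 0.10 (adjusted p = 0.000266). D2hgdh, which oxidises D-2-hydroxyglutarate to 2-oxoglutarate, rose with hypoxia in differentiation medium by 1.10 ± 0.13 (adjusted p = 0.000414). Psph and Psat1, of the serine pathway, led the rise in differentiation in normoxia, at 3.47 ± 0.14 (adjusted p = 3.15e-06) and 3.18 ± 0.22 (adjusted p = 3.27e-05). The largest fall with hypoxia in differentiation medium was that of Dld, a subunit shared by 2-oxoacid dehydrogenase complexes, at -2.33 ± 0.09 (adjusted p = 2.65e-06).

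The methyl donor cycle, 14 genes that were all tested, did not move as a block. Differentiation raised 5 and lowered 3 in normoxia (median 0.06), against 25.5% and 41% of all tested genes. In hypoxia it raised 2 and lowered 0 (median 0.26), against 23.3% and 17.6%. The hypoxic counts were 6 and 1 without DM_HYP A and 2 and 2 without DM_HYP B. Hypoxia raised 4 and lowered 4 in growth medium (median -0.29), with the same counts in differentiation medium (median -0.01). Of all tested genes, 13.5% rose and 28% fell in growth medium, and 37.5% and 27.7% in differentiation medium. Mat2a, which makes the methyl donor S-adenosylmethionine, stood at 73.6 and 77.0 FPKM in GM_NOR, 255.7 and 268.6 in DM_NOR, 48.0 and 44.1 in GM_HYP, and 41.4 and 48.3 in DM_HYP. It was high in DM_NOR alone, with a change of 1.79 ± 0.09 in differentiation in normoxia (adjusted p = 1.09e-05) and of -2.53 ± 0.09 with hypoxia in differentiation medium (adjusted p = 2.25e-06). Mthfd2, a mitochondrial folate enzyme, stood at 6.42 and 5.24 FPKM in GM_NOR, 214.9 and 223.6 in DM_NOR, 24.6 and 24.8 in GM_HYP, and 21.4 and 27.4 in DM_HYP. It was also far higher in DM_NOR, by 5.02 ± 0.13 over GM_NOR (adjusted p = 5.91e-07). Shmt2, the mitochondrial serine enzyme of the same pathway, rose there by 3.36 ± 0.08 (adjusted p = 4.5e-07) and fell with hypoxia in differentiation medium by 2.56 ± 0.08 (adjusted p = 1.32e-06). Mthfd1l, another mitochondrial folate enzyme, rose with hypoxia in growth medium by 2.58 ± 0.14 (adjusted p = 6.84e-05). Ahcy, which clears the product of methylation S-adenosylhomocysteine, was called only in hypoxia in growth medium, at -1.42 ± 0.25 (adjusted p = 0.00499).

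The replicates of DM_HYP changed the counts of some lists. Leaving out either replicate also raised the number of calls over all tested genes in both comparisons below. That number rose in differentiation in normoxia too, which holds no DM_HYP library, and the DM_HYP spread is not in the pooled error of those fits. The changed counts are therefore not a result about these lists alone. With both replicates, 37.5% of all tested genes were higher and 27.7% lower in hypoxia in differentiation medium. In differentiation in hypoxia the shares were 23.3% and 17.6%. With both, the proliferation list had 6 of 22 genes higher and 0 lower in hypoxia in differentiation medium; without DM_HYP A it had 22 higher and 0 lower, and without DM_HYP B it had 10 higher and 3 lower. In differentiation in hypoxia it had 1 higher and 0 lower with both, 20 higher and 0 lower without DM_HYP A, and 1 higher and 14 lower without DM_HYP B. The 2-oxoglutarate list in hypoxia in differentiation medium had 18 lower without DM_HYP A and 16 lower without DM_HYP B. The methylation partners had 11 and 9 higher there under the same removals. In differentiation in hypoxia the methylation partners had 3 higher and 3 lower with both, 6 and 4 without DM_HYP A, and 3 and 5 without DM_HYP B. The TET partner and base excision list had 4 higher and 2 lower there with both, 9 and 2 without DM_HYP A, and 5 and 4 without DM_HYP B. For the 8 genes themselves, hypoxia in differentiation medium gave 6 calls without either library, and differentiation in hypoxia gave 3 calls without DM_HYP A and 2 without DM_HYP B.

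**Figure D5:**
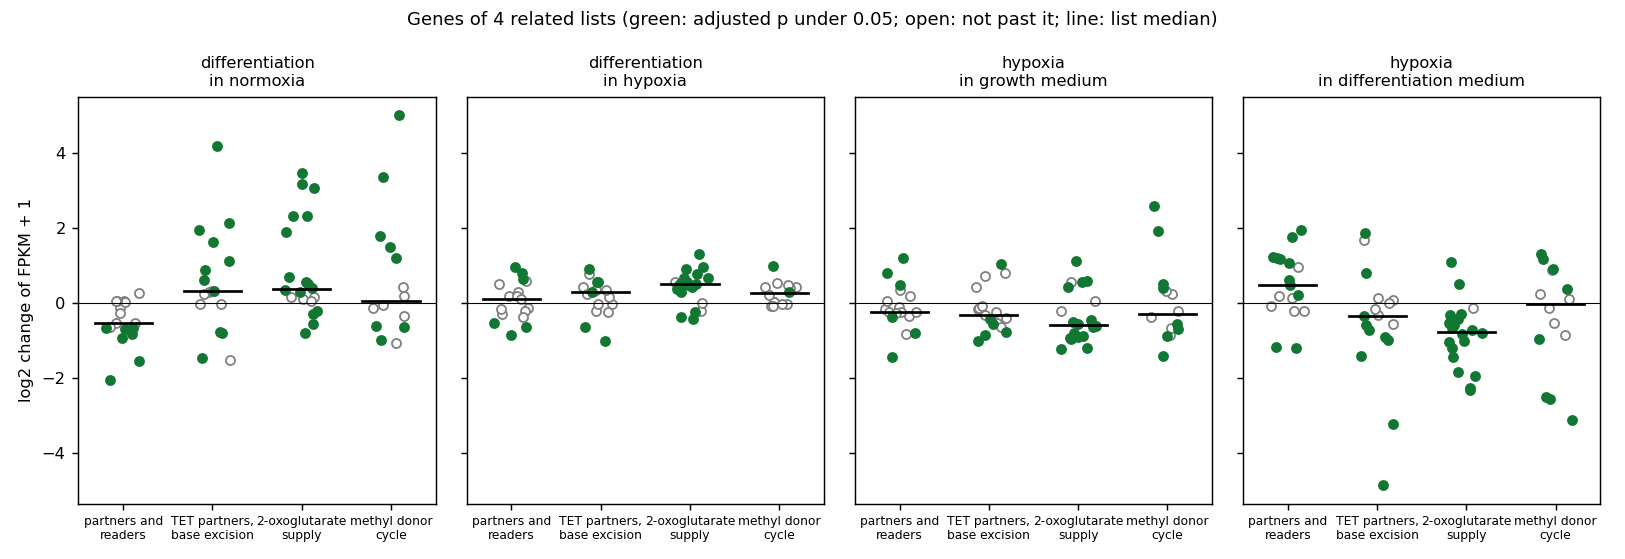
Fitted log2 change of FPKM + 1 (vertical axis) of each tested gene of 4 related lists in the 4 comparisons of groups; filled points passed an adjusted p of 0.05, open points did not, and lines are list medians. The 2-oxoglutarate supply list had 17 genes lower with hypoxia in differentiation medium.

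The genes most like each of the 8 in pattern were sought by the root-mean-square difference of mean-centred log2(FPKM + 1) over the 8 libraries and 12389 genes, as a description. For Dnmt1 the nearest was Flna, an actin crosslinker, at 0.0956, with 240.4 and 247.7 FPKM in GM_NOR, 73.4 and 71.2 in DM_NOR, 188.2 and 195.5 in GM_HYP, and 205.0 and 254.6 in DM_HYP. Next to Dnmt1 came Arhgap22 and Myl6, both at 0.108. For Dnmt3a the nearest was Mef2d, a muscle transcription factor, at 0.059, with 18.7 and 20.0 FPKM in GM_NOR, 40.4 and 40.9 in DM_NOR, 29.2 and 31.0 in GM_HYP, and 24.2 and 24.5 in DM_HYP. Both pairs share the order of their groups. Idh1 had no gene as near as the other 7 did, since its closest was Wdr6 at 0.317, and Idh1 also had the widest spread of the 8. The closest to Idh2 was Rhoj at 0.123, to Tet1 Ccdc93 at 0.0779, to Tet2 Rnf20 at 0.0776, to Tet3 Mafg at 0.0447 and to Dnmt3b Mtss1 at 0.0648.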

How the data were processed

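Gene expression of C2C12 cells was measured by stranded total RNA-seq in 8 libraries, 2 in each of 4 groups, per the labels. The authors deposited 1 gene table in FPKM; per the submitters' processing notes, STAR 2.5.1b, Cufflinks 2.2.1 and build mm9 were used. The annotation, the use of strand and the treatment of multiply mapped reads are not given in the sources used here, and isoforms are not resolved. The values are not whole numbers, although the table is named as counts, so no count test was run.

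From the deposited FPKM, log2(FPKM + 1) was computed and tested with limma 3.58.1 (R 4.3.3), with an intensity trend, on the 12389 of 24043 genes whose mean reached 1 FPKM in any group. The 4 group means leave 4 residual degrees of freedom beside 2.61 prior ones. Tests are two-sided, with Benjamini-Hochberg adjustment and a threshold of 0.05. Changes on this scale understate those of low genes. Folds are ratios of mean FPKM, and intervals are at a level of 0.95. The script was checked on simulated data. Precision is limited by 2 libraries a group. Each p-value sets a change against a variance pooled over the 4 groups, so the spread within any group bears on every comparison. When 1 library is left out, its group adds no spread to that variance, so p-values and calls of such fits do not cover it.

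The alternatives were a pseudocount of 0.1, no filter, a filter at 5 FPKM, 2 other scalings, only the libraries compared, a replicate block, array weights, robust moderation and the removal of each library. Genes named are the 8, fixed neighbours (one is not reported here), and some of the genes that were among the 2 largest called rises or falls of a list or the 3 most alike; not all such genes are described. The 8 genes and the lists were chosen with earlier results of these data known, so they are no independent support, and a few further named genes were chosen from the lists after their values were seen. RefSeq promoter windows (GRCm38.p6) were searched for exact letters on both strands.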

Additional observations from a re-analysis of the deposited data

Results flagged for a closer look

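The differentiation change differed between oxygen levels for 5 of the 8 genes, by the limma interaction test (adjusted p-values over 12389 genes). The difference, hypoxia minus normoxia on the log2 scale, was 4.61 for Idh1, 2.05 for Dnmt1, 1.10 for Idh2, -0.66 for Tet2 and -1.32 for Dnmt3a. Idh1 fell in normoxia and rose in hypoxia, with both changes called. Dnmt3a rose in normoxia and fell in hypoxia, the latter a call that many alternatives lost. Idh2 fell at both oxygen levels, by less in hypoxia. Dnmt1 and Tet2 changed in normoxia and did not pass the test in hypoxia. Of all tested genes, 35.4% had a positive and 18.7% a negative interaction that passed the same threshold.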

How the results depend on the processing

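Over 17 alternatives the 8 genes gave 657 values, of which 595 kept their direction and side of the threshold, 38 lost a call, 12 gained one and 12 changed sign. All calls of Idh1, those of Idh2 outside differentiation in hypoxia, those of Dnmt1 and Dnmt3a in differentiation in normoxia, hypoxia in differentiation medium and the interaction, those of Tet1 and Dnmt3b in hypoxia in differentiation medium and that of Tet2 in differentiation in normoxia held in every alternative that tested the gene. The 4 calls in differentiation in hypoxia became 2 with a filter at 5 FPKM, where Tet1, Dnmt3a and Dnmt3b were not tested, and also 2 with only the libraries compared, with a replicate block and with array weights. That filter left 3 of the 6 calls in hypoxia in differentiation medium. Over all 12389 tested genes, calls in differentiation in hypoxia also fell, from 5073 to 2867 with only the libraries compared. They were 4453 with a replicate block and 3567 with array weights. Calls over all tested genes moved in every comparison when 1 library was left out, so the next counts are not particular to the 8 genes. Leaving out 1 library gave 1 to 4 calls in differentiation in hypoxia, 3 to 6 in hypoxia in growth medium, 5 to 6 in differentiation in normoxia and 4 to 6 in the interaction. The sign changed only among changes near 0: Dnmt3b in differentiation in normoxia was 0.066 after median-of-ratios scaling, and -0.17 to 0.023 with 1 library left out. Tet1 in differentiation in hypoxia was -0.084 to 0.04 with 1 library left out. Tet3 in differentiation in hypoxia was -0.039 and -0.11 after median-of-ratios and upper-quartile scaling and -0.0745 to 0.083 with 1 library left out, and in hypoxia in differentiation medium -0.18, -0.034 and -0.076 to 0.081. Apart from the loss of genes under the stricter filter, the cause was not tested.

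The labels do not say whether the letters A and B pair the samples across groups. The A minus B differences of the groups correlated at -0.166 to 0.042. No strong shared difference between the letters was thus seen, which cannot settle how the cultures were paired. The replicate block lost 2 calls, Dnmt3a (adjusted p = 0.0547) and Dnmt3b (0.0577) in differentiation in hypoxia, and left 38 of 40 as they were. Gained calls included Tet1 in hypoxia in growth medium without GM_NOR B, a fit with 1 library in that group. For selected related genes, in comparisons where they were called, 870 of 942 values kept their call, 72 lost it and 0 changed sign. These genes were selected with their calls known, so this is no rate for the related lists. Of 840 counts of called genes in the lists, 690 stayed the same or close to it. With 2 libraries a group and no absolute depth, small changes of genes near 1 FPKM (Tet1, Dnmt3a, Dnmt3b, Dnmt3l) are the least secure.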
